A study of Homo sapiens with 18 samples.

Results

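The experiment described here asks where the inhibitor BRM014 changed newly made messenger RNA in the neuroblastoma line IMR-32 differently from the lines KELLY and SK-N-DZ. For each gene the quantity was a difference of differences on the log2 scale: the change between BRM014 and DMSO in IMR-32, minus the mean of the same change in KELLY and SK-N-DZ. It compared 12 of the 18 libraries of the series, 2 for each combination of the 3 lines with BRM014 or DMSO. It covered all 12853 genes that passed a filter on low counts, applied to all 16 labelled libraries. Of these genes, 359 (2.79%) had a difference of differences past the threshold of the test (edgeR's quasi-likelihood test, Benjamini-Hochberg adjusted p below 0.05), and "called" below always means past this threshold. The effect in IMR-32 was higher for 150 genes (1.17%) and lower for 209 (1.63%). After correction for the GC content and length of transcripts the same counts were 179 higher and 159 lower, so the split between directions depended on that choice. Without IMR-32 DMSO replicate 1 the test called 232 genes, 95 higher and 137 lower. A stricter set of 106 genes (0.825%) had an IMR-32 effect that was called against KELLY and against SK-N-DZ separately, in the same direction. These genes are called set apart here: 45 (0.35%) lay above both other lines and 61 (0.475%) below both. Against KELLY alone 422 genes (3.28%) were called, 155 higher (1.21%) and 267 lower (2.08%), and against SK-N-DZ alone 336 (2.61%), 150 higher (1.17%) and 186 lower (1.45%). The same contrast called 465 genes (3.62%) when KELLY, and 424 (3.3%) when SK-N-DZ, took the place of IMR-32.

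IMR-32, KELLY and SK-N-DZ are established human neuroblastoma lines. Cells of each line received 1 uM BRM014 or its solvent DMSO, and 500 uM 4-thiouridine (4sU) for the last 2 h before harvest, so that RNA made in those hours could be counted through the base conversions that 4sU causes. An engineered IMR-32 line whose SMARCA4 carries a degron that auxin triggers (SMARCA4-mAID) received 500 uM auxin or ethanol with the same labelling. Its 4 libraries give a further set of IMR-32 values below. They were also part of the joint fit of 16 labelled libraries, and so bore on the filter and on the estimate of spread behind every test. With the 12 libraries alone 336 genes had a called difference of differences. The labels state neither the exposure time of BRM014 and auxin nor whether the degron line is 1 clone. They do not say that replicate libraries are separate cultures. The p-values therefore reflect the spread among libraries only, which may be technical.

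SMARCA4 and SMARCA2 are the alternative ATPases of BAF (SWI/SNF) complexes, which use ATP to move nucleosomes and keep enhancers and promoters accessible. BRM014 inhibits both ATPases, while the degron removes SMARCA4 alone. Neuroblastoma cells in the adrenergic state are held there by a circuit of transcription factors, among them PHOX2A, HAND1, HAND2, GATA3, ISL1 and MYCN, which bind each other's enhancers. Mesenchymal-type neuroblastoma cells lack much of this circuit. Neuropilins, plexins, SLIT proteins and ROBO receptors, also prominent below, guide axons and migrating neural crest cells.

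The labelled libraries held 724913 to 1740475 gene counts. The BRM014 libraries of IMR-32 (741970 and 775064) and of SK-N-DZ (724913 and 758288) were shallower than their DMSO libraries, whereas KELLY libraries with BRM014 were not (1505376 and 1512030). The share of reads that fell in no annotated gene was also higher in the IMR-32 BRM014 libraries, at 57.3% and 57.4%, than in the IMR-32 DMSO libraries, at 50.8% and 53.5%. The part of depth and of this share in the results was not tested. In such bulk libraries fewer cells of a kind and less RNA per cell cannot be told apart. The summed level of 8 adrenergic markers was between 3124 and 5887 CPM (counts scaled to 1000000 per library) in all 12 libraries. In IMR-32 it was 3152.6 and 3491.5 CPM with DMSO and 3124.2 and 3217.9 CPM with BRM014. The sum was 3819.8 and 3889.3 CPM and 5135.5 and 5228.6 CPM in KELLY, and 5003.5 and 5161.5 CPM and 5355.6 and 5887 CPM in SK-N-DZ. DBH and TH, which make noradrenaline, had some count over the deeper IMR-32 DMSO libraries and no count in the IMR-32 BRM014 libraries. They also had none in the SMARCA4-mAID libraries with ethanol or with auxin, and TH had none in SK-N-DZ with BRM014. The summed 7 mesenchymal markers reached at most 60.6 CPM. SMARCA4 itself, whose protein is a target of the drug, stood at 90.4 and 107.1 CPM in IMR-32 with DMSO and 81.0 and 82.9 CPM with BRM014. Its difference of differences was -0.11 (SE 0.22, adjusted p = 0.931).

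With BRM014 against DMSO 1650 genes (12.8%) were called in IMR-32, 805 higher (6.26%) and 845 lower (6.57%). In KELLY 1485 (11.6%) were called, 845 higher (6.57%) and 640 lower (4.98%), and in SK-N-DZ 2498 (19.4%), 1270 higher (9.88%) and 1228 lower (9.55%). The 106 set-apart genes fell into a few patterns. In 38 of them BRM014 moved IMR-32 one way and at least 1 other line the opposite way, 19 with IMR-32 higher and 19 with IMR-32 lower. In 37 genes KELLY and SK-N-DZ both moved and IMR-32 passed no threshold, 11 with IMR-32 left above and 26 with IMR-32 left below. In 14 genes all 3 lines moved the same way but by unequal amounts. Only 11 genes were called in IMR-32 and in neither other line, 7 higher and 4 lower. Of the 106 genes, 91 had a mean raw count of at least 20 per library in the higher group of every line, among 7678 tested genes with such counts. Genes below both lines were longer and poorer in GC than the background: their median transcript had 42.4% GC and 6061 bases, against 47.7% and 3550 bases for all tested genes and 52.4% and 3718 bases for genes above both lines. Under the correction for GC content and length, 84 of the 106 genes were still set apart in the same direction.

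**Figure D1:**
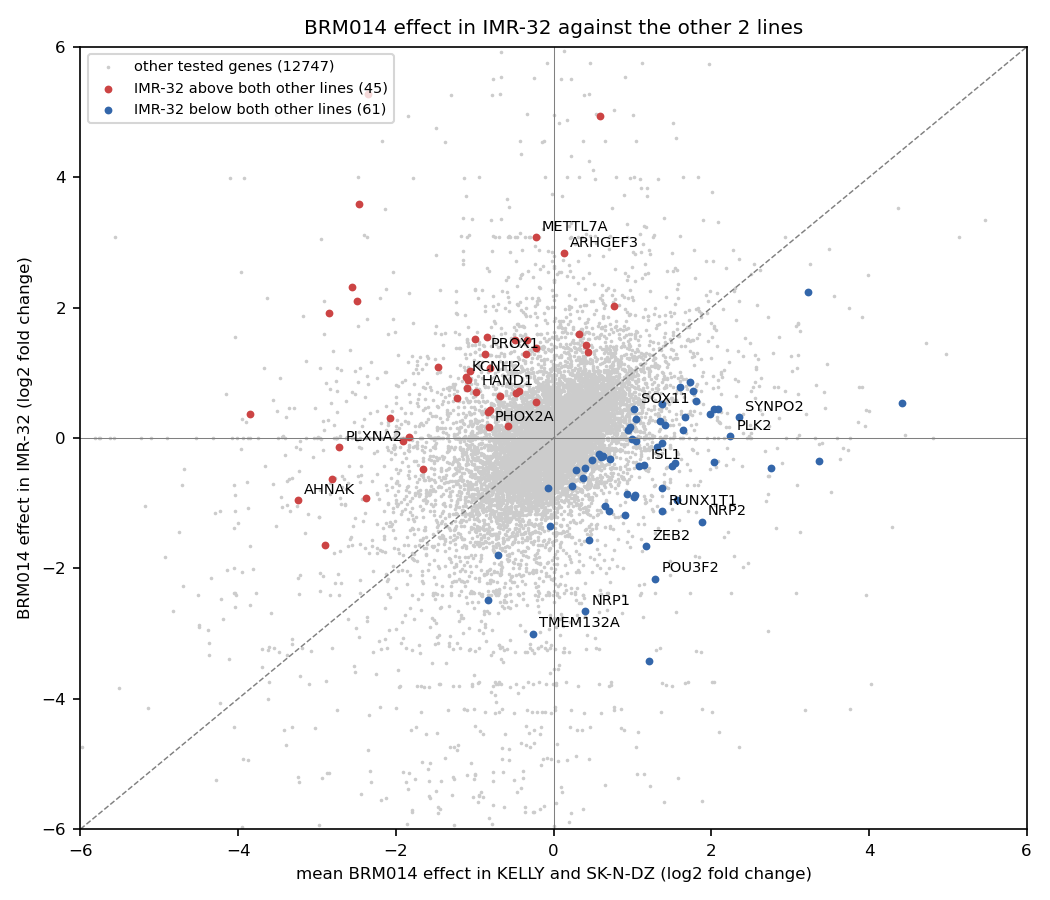
Log2 fold change with BRM014 in IMR-32 (vertical axis) against the mean log2 fold change in KELLY and SK-N-DZ (horizontal axis), 1 point per tested gene, with the 106 set-apart genes in colour and the dashed line marking equal effects. The 45 red genes lie above the dashed line and the 61 blue genes below it, and PHOX2A, HAND1 and PROX1 sit in the upper left quadrant while NRP2, ISL1 and RUNX1T1 sit in the lower right. The axes end at 6, which leaves out 53 genes, 1 of them set apart.

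The adrenergic regulators held the largest share of called members among the 30 gene lists examined. Of 33 regulators tested, 14 (42.4%) had a called difference of differences, against 2.79% of all genes: 3 were higher in IMR-32 and 11 lower. The median over the 33 was -0.27, against -0.04 for all tested genes. Between 13 and 15 members were called under each of the other scalings, filters and tests tried. Tested within each line, BRM014 moved many of the 33 too. KELLY had 13 called higher with 11 lower, SK-N-DZ 15 with 8, and IMR-32 9 with 8. The called shares of all tested genes were 11.6%, 19.4% and 12.8% in that order. The part of this broad response, and of expression level, in the 42.4% was not tested. The list was chosen with earlier results of these data known, so these counts are a description. Within it the circuit did not move as a block. PHOX2A, a homeodomain factor that specifies noradrenergic neurons, and HAND1 were higher relative to the other lines, and ISL1 was lower.

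PHOX2A, at chr11:72239077-72245664 (hg38), stood at 288.2 and 265.4 CPM in IMR-32 with DMSO and 322.7 and 297.8 CPM with BRM014. In KELLY it stood at 373.5 and 348.4 CPM with DMSO and 209.1 and 181.8 CPM with BRM014, and in SK-N-DZ at 813.9 and 858.1 CPM and 446.6 and 543.1 CPM. Its level thus fell in both other lines without overlap between the groups, while the IMR-32 libraries with BRM014 lay slightly above those with DMSO. The log2 change was 0.16 (SE 0.13, adjusted p = 0.466) in IMR-32, -0.89 in KELLY and -0.76 in SK-N-DZ. The resulting difference of differences was 0.98 (SE 0.15, adjusted p = 1.78e-06). With GC and length correction the difference of differences was still called, but the line effects shifted to 0.67 in IMR-32, which then passed the threshold, and -0.03 in SK-N-DZ, which no longer did. In SMARCA4-mAID cells PHOX2A rose with auxin, from 324.5 and 271.7 CPM to 499.4 and 534.5 CPM, a log2 change of 0.80 (SE 0.11, adjusted p = 3.38e-07).

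HAND1 (chr5:154474972-154478264), a basic helix-loop-helix factor of sympathetic and cardiac development, had lower levels in IMR-32 than in the other lines with DMSO. It stood at 78.7 and 64.1 CPM with DMSO and 109.0 and 126.4 CPM with BRM014 in IMR-32, at 422.7 and 381.8 CPM and 102.6 and 190.2 CPM in KELLY, and at 595.3 and 674.7 CPM and 441.3 and 443.3 CPM in SK-N-DZ. No groups overlapped within a line: the drug-treated libraries were the higher ones in IMR-32 and the lower ones in KELLY and SK-N-DZ. The log2 change was 0.71 (SE 0.20, adjusted p = 0.00864) in IMR-32, -1.46 in KELLY and -0.52 in SK-N-DZ. The resulting difference of differences was 1.70 (SE 0.23, adjusted p = 1.7e-08). The rise in IMR-32 was no longer called without BRM014 replicate 2 (0.56), without DMSO replicate 2 (0.58) or with DESeq2 (0.74). The fall in SK-N-DZ was lost without DMSO replicate 2 (-0.43), with DESeq2 (-0.52) and with GC and length correction (0.02). The difference of differences was called in every alternative. In SMARCA4-mAID cells HAND1 rose with auxin from 43.4 and 47.8 CPM to 115.1 and 121.7 CPM (log2 change 1.37 (SE 0.19, adjusted p = 7.35e-08)). Its paralog HAND2 was not called in the difference of differences (-0.15 (SE 0.12, adjusted p = 0.664)), nor was GATA3 (-0.27 (SE 0.13, adjusted p = 0.314)).

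ISL1 (chr5:51383391-51394738), a LIM-homeodomain factor of sympathetic and motor neurons, fell in IMR-32 and rose in both other lines. Its level was 473.5 and 427.4 CPM with DMSO and 334.5 and 340.0 CPM with BRM014 in IMR-32, against 360.9 and 399.3 CPM and 1269 and 1357 CPM in KELLY, and 469.0 and 420.8 CPM and 588.9 and 675.7 CPM in SK-N-DZ. The groups were separate in each line. The log2 change was -0.42 (SE 0.12, adjusted p = 0.00817) in IMR-32, 1.79 in KELLY and 0.51 in SK-N-DZ. The resulting difference of differences was -1.57 (SE 0.14, adjusted p = 1.3e-15). Without IMR-32 DMSO replicate 1 the fall in IMR-32 was -0.35 and not called. ISL1 did not pass the test with auxin, where the log2 change was 0.25 (SE 0.13) at the lower level of 130.9 and 132.1 CPM with ethanol.

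**Figure D2:**
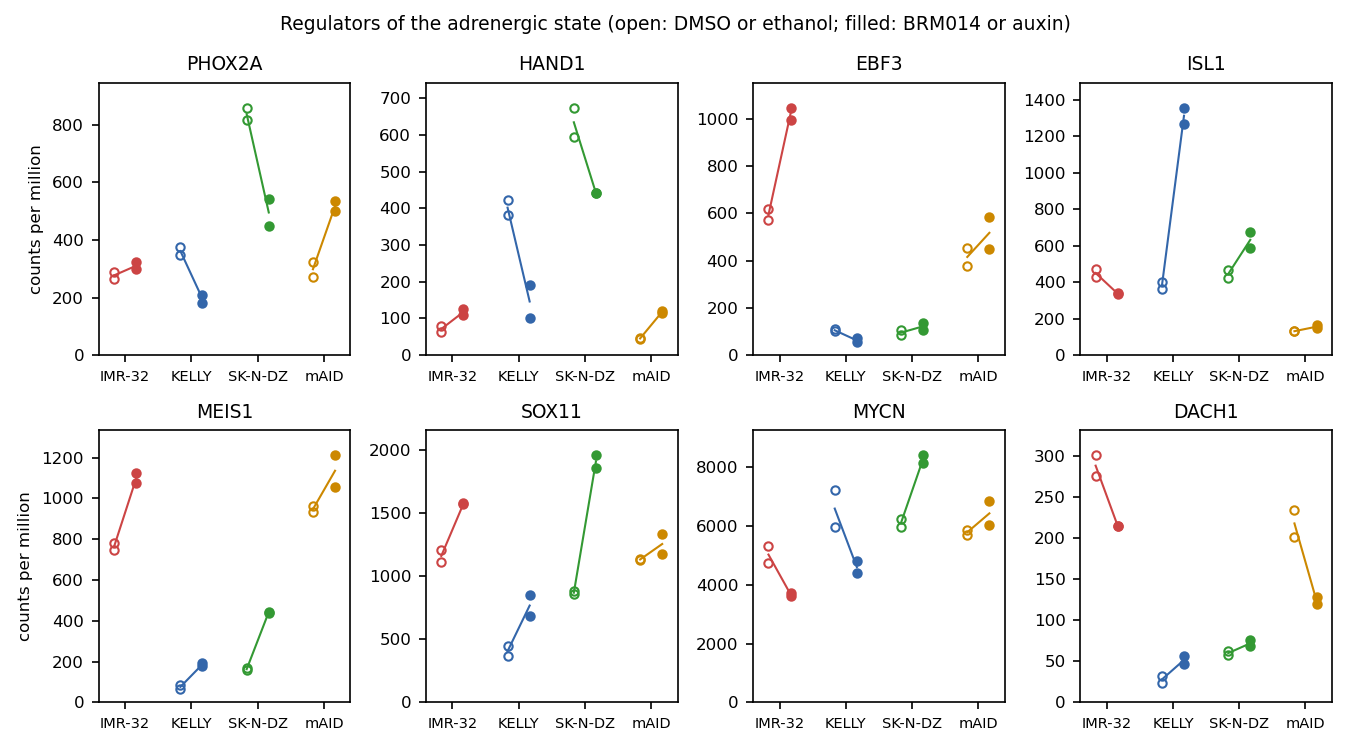
CPM (vertical axes, from 0) of 8 adrenergic regulators in each library of IMR-32, KELLY, SK-N-DZ and SMARCA4-mAID IMR-32 (mAID), with open points for DMSO or ethanol, filled points for BRM014 or auxin, and lines joining the means of 2 libraries. PHOX2A and HAND1 slope down in KELLY and SK-N-DZ but not in IMR-32 or mAID, and ISL1 slopes up in KELLY and SK-N-DZ but not in IMR-32.

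The promoters of ISL1, HAND1 and PHOX2A, regulators set apart on both sides, are shown because basic helix-loop-helix factors such as HAND1 and HAND2 bind E-boxes, CANNTG. Each is 250 bases before to 50 after the RefSeq start of the gene in GRCh38.p14, written along the strand of the gene, with any E-box in capitals (both strands read the same, since the motif is its own reverse complement). ISL1 is at chr5:51383198-51383497 on the plus strand, HAND1 at chr5:154478178-154478477 on the minus strand, and PHOX2A at chr11:72244127-72244426 on the minus strand.
ISL1: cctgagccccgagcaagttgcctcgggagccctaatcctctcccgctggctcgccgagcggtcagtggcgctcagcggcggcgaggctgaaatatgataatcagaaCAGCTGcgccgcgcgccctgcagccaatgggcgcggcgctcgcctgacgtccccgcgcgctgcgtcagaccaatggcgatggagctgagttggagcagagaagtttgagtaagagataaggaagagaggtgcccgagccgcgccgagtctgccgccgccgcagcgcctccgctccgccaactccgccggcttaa
HAND1: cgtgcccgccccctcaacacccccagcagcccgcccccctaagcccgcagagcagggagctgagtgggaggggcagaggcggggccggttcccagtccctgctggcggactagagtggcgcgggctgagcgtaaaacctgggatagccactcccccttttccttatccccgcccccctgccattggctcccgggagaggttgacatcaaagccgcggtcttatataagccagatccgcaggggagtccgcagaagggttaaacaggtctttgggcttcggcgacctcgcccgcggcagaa
PHOX2A: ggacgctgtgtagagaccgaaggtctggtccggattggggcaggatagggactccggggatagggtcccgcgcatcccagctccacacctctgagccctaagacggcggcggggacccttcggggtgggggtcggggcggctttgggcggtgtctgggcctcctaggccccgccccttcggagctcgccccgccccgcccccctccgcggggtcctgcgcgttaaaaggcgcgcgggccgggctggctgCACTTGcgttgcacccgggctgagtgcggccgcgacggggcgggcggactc
ISL1 and PHOX2A each held 1 E-box and HAND1 held none in this window. An E-box was present in 59.4% of 9826 promoters of tested genes, in 15 of 31 promoters (48.4%) of genes above both lines and in 24 of 42 (57.1%) of genes below both. The E-box CACGTG, bound by MYC and MAX proteins, was present in 10.4% of the promoters of tested genes, in 1 of the 31 and in 1 of the 42. A match is a description of the letters only.

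Several of the remaining regulators rose in IMR-32 too, but less than in the other lines. MEIS1, a TALE homeodomain factor, rose in all 3 lines: from 783.0 and 746.7 CPM to 1123 and 1075 CPM in IMR-32, from 67.2 and 85.2 CPM to 179.0 and 195.3 CPM in KELLY, and from 168.9 and 157.0 CPM to 445.3 and 440.8 CPM in SK-N-DZ. The rise was smaller in IMR-32, with log2 changes of 0.52, 1.31 and 1.44 and a difference of differences of -0.85 (SE 0.13, adjusted p = 1.89e-06). SOX11, a neural progenitor factor of the SOXC group, did the same, with log2 changes of 0.44 in IMR-32, 0.91 in KELLY and 1.14 in SK-N-DZ (difference of differences -0.59 (SE 0.11, adjusted p = 0.000115)). EYA1, a transcriptional coactivator and phosphatase, passed the test in KELLY (1.60) and SK-N-DZ (1.02) and not in IMR-32 (-0.14), with a difference of differences of -1.45 (SE 0.24, adjusted p = 1.01e-05). Its SK-N-DZ call was lost without BRM014 replicate 1 (0.85) or DMSO replicate 1 (0.87). LMO3 had few reads and its difference of differences of -3.88 (SE 0.87) became -2.07, not called, without IMR-32 DMSO replicate 1. EBF3, a helix-loop-helix factor of neuronal differentiation, was the third regulator on the higher side: it rose in IMR-32 from 571.3 and 616.8 CPM to 1048 and 997.4 CPM and fell in KELLY from 110.3 and 100.4 CPM to 70.6 and 54.4 CPM, with a difference of differences of 0.99 (SE 0.17, adjusted p = 1.48e-05). It was not set apart from SK-N-DZ, where the log2 change was 0.35 (SE 0.16).

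MYCN, the amplified oncogene of these lines, was among the most highly counted genes, and IMR-32 was not set apart for it. MYCN fell in IMR-32 (log2 change -0.45, but -0.05 and not called with GC and length correction) and in KELLY (-0.52) and rose in SK-N-DZ (0.44). The difference of differences of -0.41 (SE 0.08, adjusted p = 0.000109) therefore came from averaging lines that moved in opposite directions, and it was not called with DESeq2 (adjusted p = 0.0757).

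Both neuropilins were set apart, in the same direction. NRP1 (chr10:33177492-33336262) and NRP2 (chr2:205681990-205798133) are co-receptors of class 3 semaphorins and of VEGF. NRP2 stood at 118.4 and 105.2 CPM in IMR-32 with DMSO and 38.3 and 53.4 CPM with BRM014, whereas it went from 37.8 and 44.9 CPM to 237.8 and 235.6 CPM in KELLY and from 150.9 and 185.6 CPM to 397.5 and 396.6 CPM in SK-N-DZ. It fell in IMR-32 and rose in both other lines, with log2 changes of -1.28 (SE 0.22, adjusted p = 6.42e-06), 2.52 and 1.24. The difference of differences was -3.16 (SE 0.25, adjusted p = 2.29e-18), and this and each line's call held in every alternative. NRP1 fell in IMR-32 from 215.4 and 227.9 CPM to 22.1 and 47.8 CPM. It rose in KELLY from 185.9 and 155.9 CPM to 301.9 and 267.6 CPM and was at 170.7 and 191.1 CPM with DMSO and 190.1 and 188.2 CPM with BRM014 in SK-N-DZ. For NRP1 the difference of differences was -3.05 (SE 0.26, adjusted p = 2.22e-16). In the degron line NRP1 fell with auxin from 140.5 and 108.2 CPM to 27.7 and 28.3 CPM (log2 change -2.14 (SE 0.21, adjusted p = 9.16e-13)), and NRP2 stood at 194.3 and 191.2 CPM with ethanol and 162.2 and 186.7 CPM with auxin (log2 change -0.14 (SE 0.15, adjusted p = 0.828)). Whether auxin affected the 2 genes differently was not tested.

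PLXNA2, a plexin that signals for neuropilin-bound semaphorins, moved the other way relative to the other lines. It fell in KELLY from 75.5 and 75.3 CPM to 7.19 and 7.68 CPM and in SK-N-DZ from 105.4 and 135.5 CPM to 25.3 and 30.3 CPM, and the IMR-32 libraries overlapped at 36.8 and 27.5 CPM with DMSO and 25.0 and 33.7 CPM with BRM014. The difference of differences was 2.58 (SE 0.48, adjusted p = 9.1e-05). With auxin PLXNA2 fell from 38.6 and 21.4 CPM to 6.73 and 16.1 CPM (log2 change -1.35 (SE 0.39, adjusted p = 0.0411)), and whether this differs from the BRM014 effect in IMR-32 was not tested. In the list of 41 guidance genes, 7 (17.1%) were called, 2 higher and 5 lower, against 2.79% of all genes, and 7 were called under each of the 7 other scalings, filters, blocks and tests. ROBO1, the SLIT receptor, rose in all 3 lines but least in IMR-32 (0.57, 1.80 in KELLY and 1.81 in SK-N-DZ), with a difference of differences of -1.23 (SE 0.25, adjusted p = 0.000401). The ROBO1 call within IMR-32 was lost without any one of the 4 IMR-32 libraries, where the log2 change was 0.53 to 0.58, and without SK-N-DZ DMSO replicate 1 (0.54), with no filter (0.53), the 12 libraries alone (0.55) or GC and length correction (0.53). SLIT3, a ROBO ligand, fell in KELLY (-1.0) and SK-N-DZ (-2.07) and had a log2 change of -0.27 (SE 0.19) in IMR-32, with a difference of differences of 1.26 (SE 0.24, adjusted p = 0.000159). The ephrin gene EFNA5 rose in KELLY (2.26) and SK-N-DZ (0.79) and had a log2 change of 0.03 (SE 0.16) in IMR-32 (difference of differences -1.50 (SE 0.21, adjusted p = 5.67e-08)). SLIT2 was called at -1.99, a value that became -1.26 without IMR-32 DMSO replicate 1 and that lost its call without BRM014 replicate 1 (-2.01) or replicate 2 (-2.06) of IMR-32. SLIT3, EFNA5 and SLIT2 were not set apart.

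Transcriptional regulators outside the adrenergic circuit also turned in opposite directions. RUNX1T1, a co-repressor of the ETO family, fell in IMR-32 from 508.8 and 480.4 CPM to 194.5 and 258.5 CPM. It rose in KELLY from 157.7 and 115.6 CPM to 358.7 and 347.7 CPM and in SK-N-DZ from 238.4 and 240.2 CPM to 584.9 and 669.4 CPM. Its difference of differences of -2.50 (SE 0.16, adjusted p = 3.12e-23) had the smallest error relative to its size of the genes named, and all 3 line calls held in every alternative. Auxin lowered it too, from 436.8 and 420.1 CPM to 302.0 and 308.4 CPM (log2 change -0.49 (SE 0.12, adjusted p = 0.00903)). ZEB2, a zinc-finger repressor of neural crest cells, fell in IMR-32 from 50.0 and 64.1 CPM to 13.3 and 22.5 CPM and rose in SK-N-DZ from 13.2 and 12.1 CPM to 54.5 and 54.3 CPM, while KELLY overlapped at 110.3 and 69.2 CPM with DMSO and 110.4 and 105.0 CPM with BRM014. For ZEB2 the difference of differences was -2.83 (SE 0.43, adjusted p = 1.34e-06). POU3F2, a neural POU factor, fell from 19.9 and 19.2 CPM to 4.42 and 4.21 CPM in IMR-32, which is 48 counts against 6 in total, a ratio of 0.221 with an exact 95% interval of 0.0771 to 0.516 that covers counting error only. It rose in KELLY from 65.4 and 43.4 CPM to 129.4 and 120.4 CPM and in SK-N-DZ from 24.6 and 25.9 CPM to 67.8 and 64.4 CPM, and its difference of differences was -3.44 (SE 0.63, adjusted p = 8.8e-05). Without either IMR-32 BRM014 library the IMR-32 call of POU3F2 was lost, at -2.22 and -2.16, and the KELLY call was lost without BRM014 replicate 1 (1.14) or DMSO replicate 2 (0.93).

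PROX1 (chr1:213983181-214041502), a homeodomain factor that drives cell cycle exit in neural precursors, was among the genes above both lines in this pattern. It rose in IMR-32 from 111.8 and 132.7 CPM to 300.6 and 295.0 CPM, and fell in KELLY from 673.3 and 740.8 CPM to 417.5 and 439.9 CPM and in SK-N-DZ from 96.4 and 120.1 CPM to 58.5 and 48.0 CPM. The groups did not overlap in any of the lines. The log2 changes were 1.29 (SE 0.16, adjusted p = 1.91e-10), -0.72 and -1.03, the difference of differences was 2.16 (SE 0.19, adjusted p = 2.02e-15), and every one of these calls held in every alternative. With auxin PROX1 gave -0.01 (SE 0.15, adjusted p = 1), at 130.2 and 115.1 CPM with ethanol and 141.3 and 103.7 CPM with auxin. HRK, a BH3-only activator of apoptosis, rose in IMR-32 from 300.7 and 319.4 CPM to 922.3 and 886.4 CPM and had 31.2 and 24.3 CPM with DMSO and 7.84 and 15.4 CPM with BRM014 in KELLY. For HRK the difference of differences was 2.39 (SE 0.23, adjusted p = 1.11e-13). The KELLY fall of HRK was not called without BRM014 replicate 1 (-0.87) or DMSO replicate 1 (-1.06), and in SK-N-DZ the log2 change was -0.42 (SE 0.26). FAT1, a giant atypical cadherin, rose in IMR-32 from 129.4 and 146.4 CPM to 400.8 and 382.1 CPM, with a difference of differences of 2.00 (SE 0.24, adjusted p = 3.14e-10). Its fall in SK-N-DZ, from 79.7 and 100.8 CPM to 58.5 and 21.5 CPM, rested on BRM014 replicate 2, without which the log2 change was -0.63 and not called.

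The last 2 genes named on this side had fewer reads. KCNH2, a voltage-gated potassium channel gene, had a difference of differences of 2.05 (SE 0.37, adjusted p = 6.73e-05) that was called in every alternative, and NMT2, an N-myristoyltransferase gene, one of 2.09 (SE 0.46, adjusted p = 0.00155), also called in every alternative. The calls within single lines were less stable. The IMR-32 rise of KCNH2 (0.94) was 0.54 without DMSO replicate 2 and was also lost without BRM014 replicate 1 (0.89) or replicate 2 (0.91). In KELLY the KCNH2 fall was -0.62 without DMSO replicate 1, and in SK-N-DZ it was -0.94 without BRM014 replicate 1 and -0.92 without DMSO replicate 2, none of them called. With GC and length correction the falls of KCNH2 were -0.73 in KELLY and -0.43 in SK-N-DZ, neither called. The IMR-32 rise of NMT2 (1.03) was lost without any one of the 4 IMR-32 libraries, at 0.76 to 1.19, without SK-N-DZ DMSO replicate 1 (0.99), with no filter (0.98) or with the 12 libraries alone (1.00). The KELLY fall of NMT2 was -0.70 without BRM014 replicate 2 or DMSO replicate 1, also not called, and it missed the threshold with no filter, the 12 libraries alone and DESeq2 (all -1.04).

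**Figure D3:**
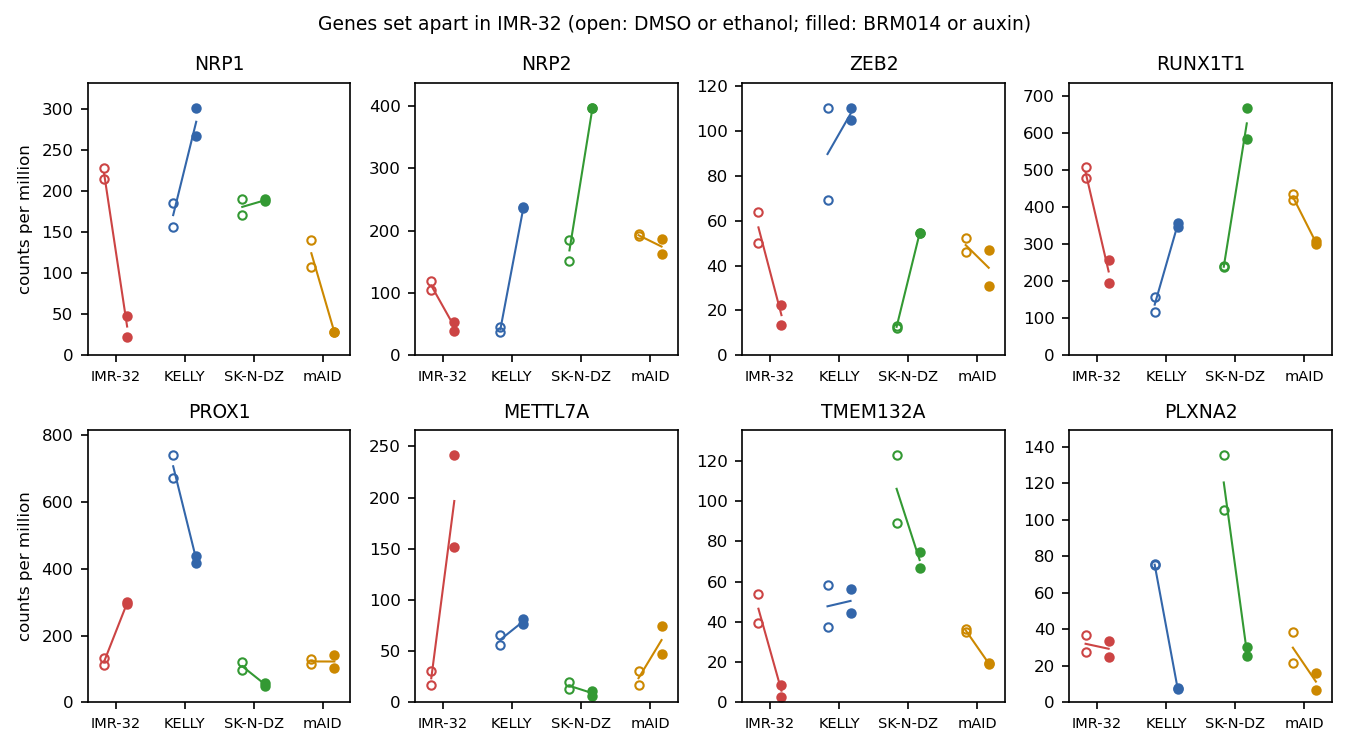
CPM (vertical axes, from 0) of 8 set-apart genes in each library of IMR-32, KELLY, SK-N-DZ and SMARCA4-mAID IMR-32 (mAID), with open points for DMSO or ethanol, filled points for BRM014 or auxin, and lines joining the means of 2 libraries. NRP2 and RUNX1T1 fall in IMR-32 and rise in KELLY and SK-N-DZ, PROX1 does the reverse, and METTL7A and TMEM132A change strongly in IMR-32 alone of the 3 BRM014-treated lines.

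Of the 7 genes that rose in IMR-32 only and lay above both lines, 6 had enough reads in every line. Among these METTL7A (chr12:50923472-50932517), a lipid-droplet and endoplasmic reticulum methyltransferase gene, had the largest rise. It went from 16.9 and 30.2 CPM with DMSO to 241.6 and 151.7 CPM with BRM014. In KELLY it stood at 56.4 and 66.2 CPM and 81.7 and 76.8 CPM, and in SK-N-DZ at 19.8 and 12.7 CPM and 6.65 and 11.4 CPM. The IMR-32 libraries were therefore separated by several fold while those of the other lines differed less. The log2 change was 3.08 (SE 0.32, adjusted p = 7.6e-13) in IMR-32, 0.38 (SE 0.28, adjusted p = 0.465) in KELLY and -0.83 (SE 0.50, adjusted p = 0.266) in SK-N-DZ, with a difference of differences of 3.31 (SE 0.43, adjusted p = 8.09e-09). METTL7A also rose with auxin, from 30.3 and 17.0 CPM to 47.1 and 74.7 CPM (log2 change 1.38 (SE 0.32, adjusted p = 0.00424)).

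ARHGEF3, a RhoA exchange factor gene, rose from 20.6 and 12.8 CPM to 82.5 and 160.1 CPM in IMR-32, with a difference of differences of 2.71 (SE 0.46, adjusted p = 1.64e-05). In KELLY it stood at 45.0 and 50.2 CPM with DMSO and 33.3 and 28.8 CPM with BRM014, in SK-N-DZ at 17.4 and 13.8 CPM and 19.9 and 36.6 CPM, and neither line was called. SOCS2, a feedback inhibitor of cytokine and growth hormone signalling, rose from 144.8 and 131.8 CPM to 390.4 and 330.1 CPM (difference of differences 1.60 (SE 0.23, adjusted p = 1.22e-07)). Its log2 change in KELLY was -0.64 (SE 0.23, adjusted p = 0.0585), just short of the threshold in the other direction, and with GC and length correction that fall was called (-0.68). HECA, the human homolog of the fly gene headcase, rose from 91.9 and 101.6 CPM to 300.6 and 283.8 CPM (difference of differences 1.28 (SE 0.29, adjusted p = 0.0025)), with log2 changes of 0.30 (SE 0.26) in KELLY and 0.33 (SE 0.27) in SK-N-DZ. PPFIBP1, a liprin-beta gene, was called at 1.64 but at 1.36 without IMR-32 DMSO replicate 1 it was not. MARCKSL1, an actin-binding substrate of protein kinase C, was called at 0.77 and not without IMR-32 BRM014 replicate 1 or DMSO replicate 1 (0.67 in both cases).

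TMEM132A (chr11:60924463-60937159), a transmembrane protein gene, had the largest fall in IMR-32 alone. It stood at 53.7 and 39.4 CPM with DMSO and 8.84 and 2.81 CPM with BRM014, against 58.2 and 37.3 CPM and 44.4 and 56.3 CPM in KELLY and 89.2 and 122.8 CPM and 74.4 and 66.9 CPM in SK-N-DZ. The IMR-32 groups were far apart, the KELLY groups overlapped, and the SK-N-DZ change of -0.59 (SE 0.29) was not called. The difference of differences was -2.74 (SE 0.55, adjusted p = 0.000401). MYCBP2, a neuronal E3 ubiquitin ligase that binds MYC, fell in IMR-32 from 415.4 and 450.2 CPM to 303.5 and 309.1 CPM, with log2 changes of 0.26 (SE 0.14) in KELLY and 0.31 (SE 0.14) in SK-N-DZ (difference of differences -0.78 (SE 0.17, adjusted p = 0.000915)). Without IMR-32 DMSO replicate 2 the IMR-32 change was -0.45 and not called. FIGNL1, an AAA ATPase gene of homologous recombination, fell from 326.4 and 351.4 CPM to 196.0 and 202.3 CPM while KELLY stood at 554.6 and 507.3 CPM and 558.7 and 496.8 CPM and SK-N-DZ at 235.4 and 255.0 CPM and 220.7 and 227.3 CPM (difference of differences -0.69 (SE 0.16, adjusted p = 0.00296)). With GC and length correction FIGNL1 was also called in SK-N-DZ, at -0.40 against -0.13 without it. DCTN1, the large subunit of dynactin, was called at -1.31 and not without IMR-32 BRM014 replicate 1 or DMSO replicate 1 (-1.02 in both cases).

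Of the 26 genes called in KELLY and SK-N-DZ but not in IMR-32 and left below, those named here had a mean raw count of at least 20 per library in the higher group of each line. PLK2, a polo-like kinase induced by stress and synaptic activity, rose in KELLY from 45.0 and 50.2 CPM to 154.9 and 141.5 CPM and in SK-N-DZ from 56.3 and 50.7 CPM to 365.5 and 396.6 CPM. In IMR-32 it stood at 19.1 and 17.4 CPM with DMSO and 13.3 and 23.9 CPM with BRM014, overlapping groups. For PLK2 the difference of differences was -2.21 (SE 0.42, adjusted p = 0.000173). SYNPO2, an actin-bundling protein gene, rose in KELLY from 16.8 and 9.13 CPM to 155.5 and 143.4 CPM and in SK-N-DZ from 142.5 and 127.8 CPM to 374.9 and 253.9 CPM. Its IMR-32 level was already 227.2 and 252.6 CPM with DMSO and was 330.0 and 271.1 CPM with BRM014 (log2 change 0.33 (SE 0.17, adjusted p = 0.214)), and the difference of differences was -2.02 (SE 0.23, adjusted p = 7.47e-11). FRMD6, an upstream activator of the Hippo pathway, likewise stood higher in IMR-32 with DMSO, at 230.9 and 232.4 CPM, than in KELLY at 21.6 and 38.8 CPM or SK-N-DZ at 53.9 and 38.0 CPM. It rose to 118.3 and 114.0 CPM in KELLY and to 232.6 and 186.9 CPM in SK-N-DZ, with a difference of differences of -1.64 (SE 0.21, adjusted p = 1.02e-08). The IMR-32 change of FRMD6 was 0.44 (SE 0.16, adjusted p = 0.0513), at the edge of the threshold, and it was called at 0.43 to 0.46 under 10 of the 19 alternatives, among them leaving out any one KELLY library or SK-N-DZ BRM014 replicate 1, BRM014 replicate 2 or DMSO replicate 2.

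NRG1, the neuregulin ligand of ERBB receptors, rose from 37.2 and 30.4 CPM to 129.4 and 117.2 CPM in KELLY and from 13.2 and 17.1 CPM to 63.8 and 68.2 CPM in SK-N-DZ, and gave 0.36 (SE 0.26) in IMR-32, with a difference of differences of -1.62 (SE 0.33, adjusted p = 0.00057). RND3, a small GTPase gene whose product loosens actin fibres, rose from 199.7 and 171.9 CPM to 992.5 and 1012 CPM in KELLY and from 242.6 and 229.7 CPM to 445.3 and 442.1 CPM in SK-N-DZ, with a difference of differences of -1.35 (SE 0.16, adjusted p = 1.21e-10). RND3 was not among the genes of the naming rule and was chosen after its values were seen, because auxin lowered it in SMARCA4-mAID cells (-0.85 (SE 0.11, adjusted p = 3.26e-08)). PTPRD, BACH2 and LIN7A completed the lower side. PTPRD, a receptor tyrosine phosphatase gene, was at -2.51 (SE 0.54, adjusted p = 0.00134), BACH2, a transcriptional repressor gene, at -1.93 (SE 0.41, adjusted p = 0.000967), and LIN7A, a synaptic scaffold gene, at -1.92 (SE 0.34, adjusted p = 3.44e-05). Their differences of differences held in every alternative, but a line call rested on single libraries. PTPRD in SK-N-DZ was 0.91 without BRM014 replicate 1 and 0.92 without DMSO replicate 1, BACH2 in SK-N-DZ was 0.72 without DMSO replicate 1, and LIN7A in KELLY was 0.80 without BRM014 replicate 1 and 0.56 without DMSO replicate 1, none of them called. GC and length correction also ended the calls of PTPRD in SK-N-DZ (1.11) and of LIN7A in KELLY (0.75).

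On the higher side of this pattern, genes fell in the other 2 lines and not in IMR-32. TP53I11, a p53-induced gene, stood at 190.4 and 197.7 CPM with DMSO and 193.0 and 199.5 CPM with BRM014 in IMR-32, and fell from 28.2 and 29.7 CPM to 6.53 and 16 CPM in KELLY and from 24.0 and 35.3 CPM to 2.66 and 8.84 CPM in SK-N-DZ. Its difference of differences was 1.86 (SE 0.34, adjusted p = 8.85e-05), and its KELLY call was lost without BRM014 replicate 1 (-0.85). NAB2, a co-repressor of EGR factors, gave a difference of differences of 1.22 (SE 0.28, adjusted p = 0.0026), with a KELLY call that was lost without any one KELLY library (log2 changes from -0.78 to -0.56). GC and length correction ended both falls of NAB2 (-0.28 in KELLY and -0.35 in SK-N-DZ). It raised the IMR-32 change of NAB2 to a called 0.88. BAIAP2, an adaptor protein gene of the actin cytoskeleton, was called at 1.86 and not without IMR-32 BRM014 replicate 2 (1.38). EEF1A2, the neuronal elongation factor gene, was called at 2.55, but its IMR-32 BRM014 libraries held 42 and 1 counts. Without BRM014 replicate 1 the EEF1A2 value reversed to -1.87, and DESeq2 did not call it (2.62). The unlabelled KELLY libraries, of 5395 and 4432 gene counts, held 199 and 108 EEF1A2 counts. Labelled KELLY libraries held 328 and 138 with DMSO and 51 and 143 with BRM014. The part of unlabelled background in the KELLY values of EEF1A2 was not tested.

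When all 3 lines moved the same way, the size still differed. AHNAK, a giant scaffold protein gene, fell in every line, least in IMR-32: from 319.8 and 367.9 CPM to 156.2 and 199.5 CPM there, from 114.5 and 56.3 CPM to 22.9 and 7.04 CPM in KELLY, and from 231.2 and 234.6 CPM to 18.6 and 11.4 CPM in SK-N-DZ (difference of differences 2.30 (SE 0.29, adjusted p = 6.56e-09)). DESeq2 did not call the IMR-32 fall of AHNAK (-0.93). KDM7A, a histone demethylase gene, rose in every line and most in IMR-32, from 47.1 and 57.7 CPM to 207.7 and 217.7 CPM (difference of differences 1.26 (SE 0.25, adjusted p = 0.000338)). Its SK-N-DZ rise was not called without BRM014 replicate 1 (0.43) or DMSO replicate 1 (0.48), or with GC and length correction (0.31). ELAVL4, a neuronal RNA-binding protein gene, rose less in IMR-32, from 577.1 and 647.9 CPM to 1039 and 986.2 CPM, than in KELLY, from 176.3 and 180.3 CPM to 895.8 and 806.7 CPM, or SK-N-DZ, from 445.6 and 466.0 CPM to 1139 and 1077 CPM (difference of differences -1.04 (SE 0.12, adjusted p = 3.64e-10)). DKK1, the secreted Wnt antagonist, rose strongly in all lines, with log2 changes of 2.24 in IMR-32, 2.90 in KELLY and 3.56 in SK-N-DZ. For DKK1 the difference of differences was -0.99 (SE 0.16, adjusted p = 6.14e-06). RCOR2, a CoREST co-repressor gene, fell most in IMR-32, from 90.4 and 104.3 CPM to 25.0 and 9.83 CPM, but its difference of differences of -1.65 was not called without BRM014 replicate 2 (-1.15) and was -2.49 without replicate 1. Its falls in the other lines were lost without KELLY BRM014 replicate 1 (-0.61) or DMSO replicate 1 (-0.55) and without SK-N-DZ BRM014 replicate 2 (-0.64) or DMSO replicate 2 (-0.66), and both were lost with GC and length correction (-0.49 and -0.14). DOK4, an adaptor of receptor kinases, had a called difference of differences of 1.25 that was lost without IMR-32 BRM014 replicate 2 (0.77) or DMSO replicate 1 (1.14).

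A few genes were set by very low counts in 1 line. DDC, the enzyme that makes dopamine, had 20 and 19 counts in the IMR-32 DMSO libraries and 0 and 0 in the BRM014 libraries. Taking a floor of 3 counts over the group, DDC was at least 7.37-fold lower with BRM014 in IMR-32, against a log2 change of -1.66 (SE 0.43, adjusted p = 0.00251) in SK-N-DZ and -0.29 (SE 0.28) in KELLY. The difference of differences of DDC was not called without either IMR-32 BRM014 library or with DESeq2, and its SK-N-DZ fall was -1.41 and not called without BRM014 replicate 2. FZD5, a Wnt receptor gene, had 15 and 2 counts against 0 and 0, at least 3.21-fold lower over the group, and rose in SK-N-DZ (1.11). The FZD5 call was lost without either BRM014 library or DMSO replicate 1 of IMR-32, and with no count in 1 group no fitted difference is given for it. CYB561, which supplies electrons to the noradrenaline-making enzyme, had 3 counts against 9 in IMR-32, a ratio of 5.29 with an exact 95% interval of 1.32 to 30.4, while it fell in KELLY from 1112 and 1113 CPM to 347.6 and 310.5 CPM. The CYB561 difference of differences was 4.30 and not called without IMR-32 BRM014 replicate 2, and 8.65 without DMSO replicate 1, against 4.88 with all libraries. IGFBP5 was the only set-apart gene with a mean count of at least 50 in IMR-32 and under 20 in both other lines. Its difference of differences of -3.22 was -2.09 and not called without SK-N-DZ BRM014 replicate 1, which held most of its SK-N-DZ counts.

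Across the 30 lists, 22 had at least 1 called member and 8 had none. Besides the adrenergic regulators, the lists with the highest shares were the mesenchymal and neural crest regulators (3 of 15, all lower), the receptor tyrosine kinase genes (4 of 23, 2 in each direction), axon guidance, the Wnt pathway (5 of 30, 2 higher and 3 lower), the voltage-gated channels (5 of 32, 2 higher and 3 lower) and the ATF4 and unfolded protein response genes (5 of 34, 4 higher and 1 lower). The list medians lay between -0.51 for glutamate, GABA and glycine receptors and 0.91 for the 8 interferon and antigen presentation genes, of which none was called. No member was called among BAF subunits (0 of 30), respiratory chain subunits (0 of 34), hypoxia and glycolysis genes (0 of 30), heat shock proteins and chaperones (0 of 25), cholinergic genes (0 of 18), Notch pathway genes (0 of 17) or HOX genes (0 of 10). Ribosomal protein genes gave 1 of 69 (1.45%) and DNA replication genes 1 of 47 (2.13%), against 2.79% of all genes. Over the 172 tested members of the 8 lists with no call by edgeR, 19 had an unadjusted p below 0.05 and DESeq2 called 0. These counts do not show that the members responded alike in the 3 lines.

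**Figure D4:**
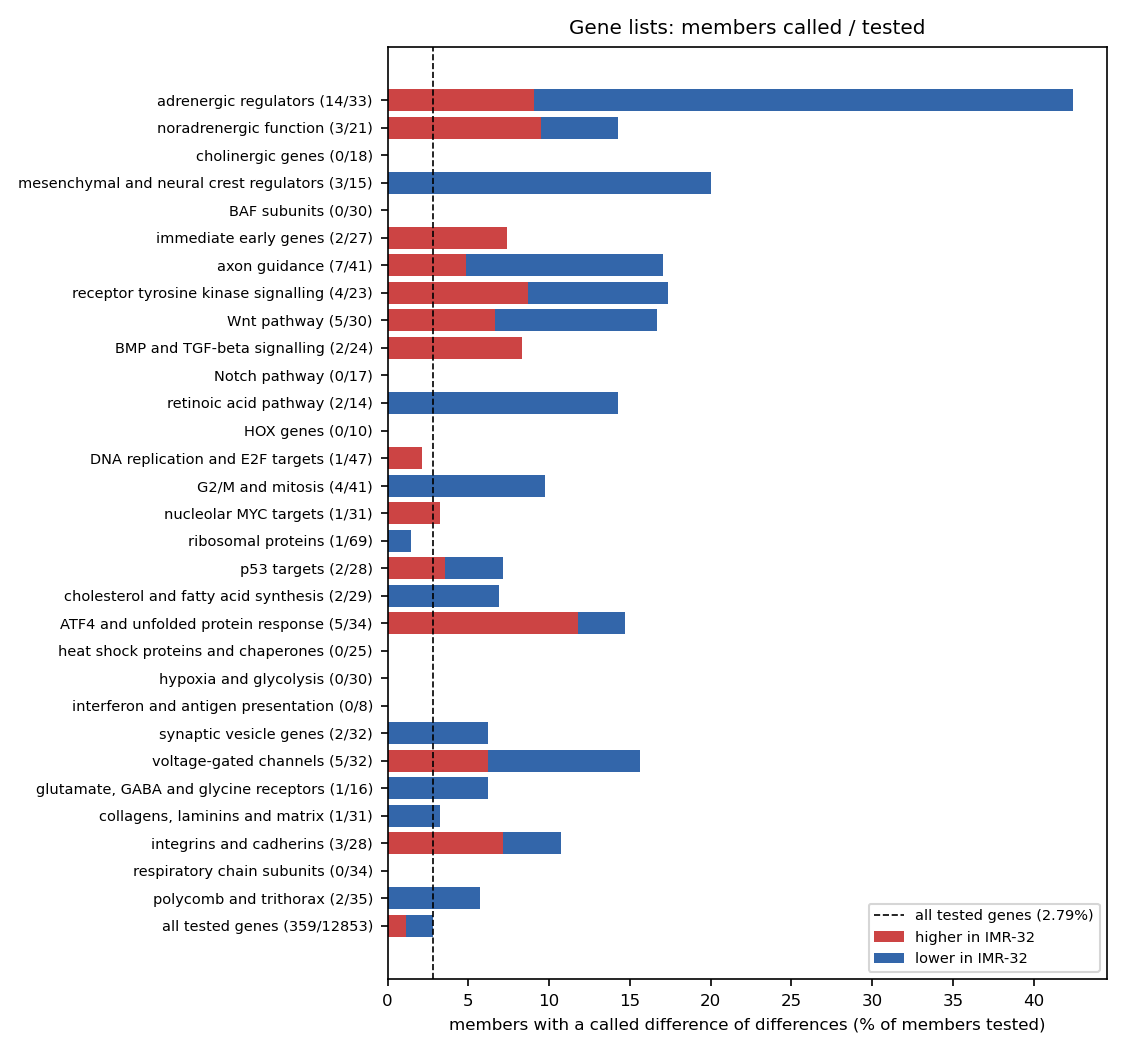
Share of the tested members of 30 gene lists (horizontal axis, percent) with a called difference of differences, red for higher and blue for lower in IMR-32, with called and tested members in brackets and a dashed line at the 2.79% of all tested genes. The bar of the adrenergic regulators is the longest, at 14 of 33, and 8 lists have no bar.

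In the mesenchymal and neural crest list the called genes were ZEB2, ZEB1 and TWIST1. TWIST1, a basic helix-loop-helix factor, rose in KELLY from 140.3 and 190.2 CPM to 436.5 and 436.0 CPM and had 237.5 and 243.4 CPM with DMSO and 173.9 and 157.3 CPM with BRM014 in IMR-32, with a difference of differences of -1.27 (SE 0.19, adjusted p = 7.02e-07). Its log2 change in SK-N-DZ was 0.06, and TWIST1 was not set apart. The IMR-32 fall of TWIST1 (-0.54) was -0.10 and not called with GC and length correction. The Wnt list was led by ZNRF3, a ubiquitin ligase that removes Frizzled receptors, which rose in IMR-32 from 275.0 and 273.6 CPM to 391.9 and 469.2 CPM with a difference of differences of 1.33 (SE 0.19, adjusted p = 8.93e-08). Among BMP and TGF-beta genes both called members were higher in IMR-32, and neither was set apart. BAMBI, a decoy receptor, rose in IMR-32 from 181.6 and 149.2 CPM to 294.7 and 283.8 CPM and fell in SK-N-DZ from 147.9 and 133.8 CPM to 53.2 and 31.6 CPM (difference of differences 1.67 (SE 0.23, adjusted p = 3.54e-08)), and it also rose with auxin (0.69 (SE 0.16, adjusted p = 0.0059)). ID1, a BMP-responsive inhibitor of helix-loop-helix factors, gave 0.87 (SE 0.17, adjusted p = 0.000377). SYT1, the calcium sensor of synaptic vesicle release, fell in IMR-32 from 738.9 and 689.1 CPM to 524.5 and 538.0 CPM and rose in KELLY from 130.1 and 122.5 CPM to 385.5 and 315.0 CPM and in SK-N-DZ from 473.1 and 485.8 CPM to 821.5 and 731.3 CPM, with a difference of differences of -1.51 (SE 0.13, adjusted p = 8.07e-16). Its IMR-32 fall was -0.38 and not called without DMSO replicate 1, and the IMR-32 rise of ZNRF3 was 0.48 and not called without BRM014 replicate 2.

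MKI67, the proliferation marker, fell in IMR-32 from 705.1 and 683.6 CPM to 359.5 and 393.3 CPM and in KELLY from 593.0 and 556.0 CPM to 398.6 and 374.6 CPM, and gave -0.12 (SE 0.10) in SK-N-DZ, with a difference of differences of -0.54 (SE 0.13, adjusted p = 0.0045). It was 1 of 4 of 41 mitotic genes called, all lower, and with GC and length correction 1 of the 41 was called. None of the 41 was set apart. Their median log2 change was -0.08 in IMR-32, -0.19 in KELLY and 0.49 in SK-N-DZ. In SK-N-DZ 24 of the 41 rose, against 9.88% of all tested genes, and in IMR-32 3 fell, against 6.57%. SCD, which makes monounsaturated fatty acids, fell in IMR-32 from 1313 and 1256 CPM to 680.7 and 758.6 CPM with a difference of differences of -0.52 (SE 0.11, adjusted p = 0.00112), and ACLY, which makes cytosolic acetyl-CoA, from 538.2 and 502.4 CPM to 222.5 and 220.6 CPM with one of -0.68 (SE 0.16, adjusted p = 0.00357). Both also fell in SK-N-DZ (-0.72 and -1.03), neither was set apart from that line, and KELLY gave 0.09 (SE 0.09) and -0.08 (SE 0.12).

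The SMARCA4-mAID libraries share no sample with the BRM014 contrasts and give separate levels in an IMR-32 background. The joint fit pooled the estimate of spread over both. Some levels in the engineered line differed from parental IMR-32 before auxin. SMARCA4 stood at 751.6 and 867.2 CPM with ethanol, against 90.4 and 107.1 CPM in IMR-32 with DMSO. POU3F2 had 0 and 3 counts with ethanol, against 27 and 21 in IMR-32 with DMSO. The part of these differences between the lines in the auxin values was not tested. With auxin 2.19% of all tested genes were called, 132 higher (1.03%) and 149 lower (1.16%). Of the 29 set-apart genes that rose in IMR-32 and lay above both other lines, 6 (20.7%) rose with auxin and 0 fell by edgeR or DESeq2 (2 fell at an unadjusted p below 0.05): HAND1, HEG1, IRF2BP2, METTL7A, RGS16 and TXNIP. Of the 25 that fell in IMR-32 and lay below both other lines, 9 (36%) fell with auxin and 0 rose by edgeR, by DESeq2 or at an unadjusted p below 0.05, among them NRP1, RUNX1T1, RCOR2 and NEUROD1. For all genes that BRM014 raised in IMR-32 the corresponding count was 88 of 805 (10.9%), and for all it lowered 83 of 845 (9.82%). Set-apart genes also had higher levels than the background. Their median in IMR-32 with DMSO was 71.4 CPM above and 221.6 CPM below both lines, against 32.1 CPM for all tested genes. The part of level in these shares was not tested. NEUROD1, a neuronal differentiation factor, had far more reads in IMR-32 than elsewhere. It fell from 624.9 and 610.4 CPM to 334.5 and 390.5 CPM with BRM014 and from 1071 and 1121 CPM to 484.4 and 518.4 CPM with auxin, against 5.4 and 2.28 CPM in KELLY and 25.8 and 21.5 CPM in SK-N-DZ with DMSO. RGS16, a regulator of G-protein signalling, rose from 0 and 3.66 CPM to 13.3 and 28.1 CPM with BRM014 in IMR-32 and from 19.3 and 15.7 CPM to 77.0 and 100.5 CPM with auxin. Where BRM014 moved only KELLY and SK-N-DZ, auxin called 2 of 11 genes left above (PHOX2A and TP53I11, both higher) and 6 of 26 left below (all lower, among them LIN7A, NRIP1, RND3, SLC6A15 and SYNPO2), with 1 gene called in the reverse direction in each set. With GC and length correction NRIP1 and SLC6A15 left this pattern: their IMR-32 falls were called (both -0.47) and their KELLY rises were not (0.15 and 0.27). The KELLY call of SLC6A15 was also lost with RLE scaling, no filter, the 12 libraries alone, the replicate block and DESeq2 (0.46 to 0.47) and without KELLY BRM014 replicate 2 (0.23), KELLY DMSO replicate 1 (0.33) or SK-N-DZ DMSO replicate 1 (0.47), and that of NRIP1 without KELLY DMSO replicate 2 (0.24).

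**Figure D5:**
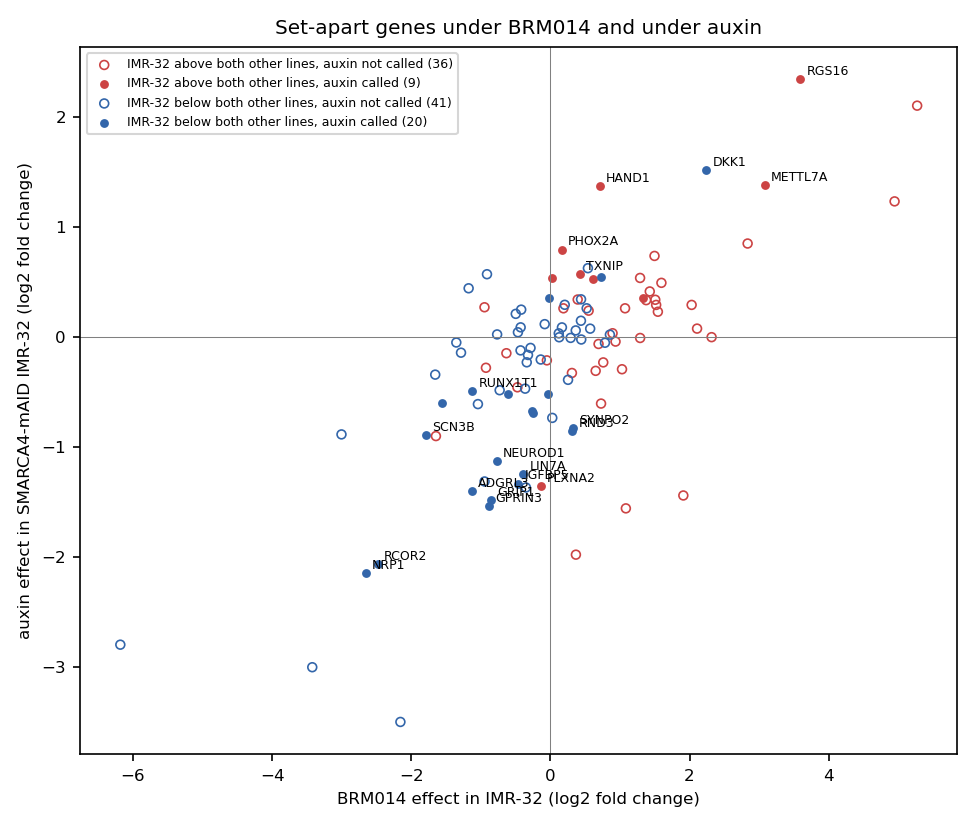
Log2 fold change with auxin in SMARCA4-mAID IMR-32 (vertical axis) against log2 fold change with BRM014 in IMR-32 (horizontal axis) for the 106 set-apart genes, red above and blue below both other lines, filled where auxin was called. METTL7A, RGS16 and HAND1 lie at the upper right and NRP1 and RCOR2 at the lower left, while PHOX2A lies near 0 on the horizontal axis and above 0 on the vertical one.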

How the data were processed

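The authors deposited 1 table of raw, unnormalised counts of reads per gene symbol for each library. Per the submitters' processing notes HISAT, HTSeq, DESeq2 and the build hg38 were used, with no versions or roles. Neither the annotation nor the strand setting is given, so reads of overlapping or antisense genes, or of near-identical copies, cannot be told apart. Rows that name no gene (no feature, 46.4% to 57.4% of reads in labelled libraries) stayed out of library sizes and tests. The 2 unlabelled KELLY libraries (5395 and 4432 gene counts) were left out. The 16 labelled libraries were fitted together with edgeR 4.0.16 in R 4.3.3 (filterByExpr, TMM scaling, 1 mean per group, quasi-likelihood test, Benjamini-Hochberg adjustment over 12853 genes). There were 8 residual degrees of freedom and the common biological coefficient of variation was 0.143. CPM use the TMM-scaled library sizes. SE is the log2 change divided by the root of F. Groups hold 2 libraries, whose counts differed by more than sampling noise (chi-square per degree of freedom 2.37 to 3.40). Coordinates and transcript GC and length are from GENCODE, matched by symbol for 97.6% of tested genes.

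Intervals and floors cover counting error only. The genes, the 30 lists and the tests were chosen with earlier results of these data known. Genes were named by rank of the difference of differences among set-apart genes with a mean raw count of at least 20 per library in the higher group of each line: up to 8 each way for genes called in IMR-32 only, 5 for opposite genes, 6 for genes called in the other 2 lines only and 3 for genes called the same way in all 3. The rule adds up to 3 each way with a mean of at least 50 in IMR-32 and under 20 elsewhere, 9 genes chosen for their known role, and up to 4 members of each list by smallest p. HDAC9, HEG1, IRF2BP2, KLHDC8B, NDRG4, NEUROD1, NRIP1, RGS16, RND3, SLC6A15, TMEM132C, TXNIP and ZC3H14 were added after their values were seen. Alternatives were DESeq2 1.42.0, RLE scaling, no filter, the 12 libraries alone, a replicate block, GC and length correction (edgeR offsets), both of these together, and leaving out each library. Some genes that the naming rule picks are not reported here.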

Additional observations from a re-analysis of the deposited data

Results flagged for a closer look

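In 18 set-apart genes all 3 lines were called and IMR-32 moved against both other lines, 7 lower and 11 higher, so that the difference between lines was itself tested (edgeR's quasi-likelihood test). The 7 that fell in IMR-32 and rose in KELLY and SK-N-DZ had differences of differences of -3.44 for POU3F2, -3.16 for NRP2, -2.50 for RUNX1T1, -1.93 for HDAC9 (a class IIa histone deacetylase gene), -1.57 for ISL1, -1.51 for SYT1 and -0.87 for ZC3H14. The 11 that rose in IMR-32 and fell in both other lines had 1.17 for KLF10, 1.23 for TXNIP, 1.33 for ZNRF3, 1.70 for HAND1, 1.83 for HEG1, 1.98 for NDRG4, 2.05 for KCNH2, 2.16 for PROX1, 4.60 for KLHDC8B, 4.88 for CYB561 and 7.62 for TMEM132C. The last 3 rest on few reads in IMR-32: TMEM132C had 0 and 0 counts with DMSO and 4 and 1 with BRM014, so its value is fitted against a group with no count and gives neither a size nor a bound, and it was not called without BRM014 replicate 1. KLHDC8B had 5 and 1 counts with DMSO and 6 and 9 with BRM014 in IMR-32. TXNIP and HEG1 also rose with auxin, by 0.57 (SE 0.11) and 0.52 (SE 0.15). Only NRP2, RUNX1T1 and PROX1 kept all 3 line calls in every alternative.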

How the results depend on the processing

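Of 19 alternatives, 7 changed the analysis and 12 left out 1 library each. The 359 called genes became 349 with RLE scaling, 361 with no filter, 336 with the 12 libraries alone, 338 with GC and length correction and 324 with DESeq2. Leaving out 1 library gave 232 (without IMR-32 DMSO replicate 1) to 383 (without SK-N-DZ BRM014 replicate 2) called genes, and 78 to 107 set-apart genes against 106. With a replicate block 377 genes were called and all 106 stayed set apart. The labels do not say whether replicate numbers pair the samples. Deviations of same-numbered libraries correlated at -0.04 in KELLY, 0.015 in SK-N-DZ and -0.002 in IMR-32, which cannot show how the libraries were made. The difference of EEF1A2 ranged from -1.87 to 3.50, and that of SMARCA4, never called, from -0.24 to 0.0035. The IMR-32 and SK-N-DZ BRM014 libraries were the shallowest labelled ones, each group held 2 libraries, and the effect of depth on the calls was not tested.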

Other observations

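CDKN1A, the p21 cell cycle inhibitor, fell in all 3 lines and least in IMR-32, from 99.3 and 82.4 CPM to 22.1 and 35.1 CPM, against 161.3 and 183.3 CPM to 26.1 and 23.0 CPM in KELLY and 154.5 and 120.6 CPM to 0 and 8.84 CPM in SK-N-DZ. Its difference of differences of 2.19 (SE 0.50, adjusted p = 0.0025) was 1.77 and not called without IMR-32 BRM014 replicate 2, and 4.99 without SK-N-DZ BRM014 replicate 2. DESeq2 did not call this difference (adjusted p = 0.0521). CDKN1A was not set apart: its IMR-32 effect minus its KELLY effect was 1.14 (SE 0.48, adjusted p = 0.224). In SK-N-DZ the BRM014 libraries held 0 and 7 counts of it. EGR1, an immediate early factor, rose in IMR-32 from 40.4 and 52.2 CPM to 185.6 and 212.1 CPM, with a difference of differences of 1.61 (SE 0.41, adjusted p = 0.0124) that was not called without IMR-32 BRM014 replicate 2 (1.47), IMR-32 DMSO replicate 1 (1.43) or KELLY DMSO replicate 1 (0.98). EGR1 also rose in SK-N-DZ (log2 change 1.17) and was not set apart. That SK-N-DZ call was lost without BRM014 replicate 1 (0.92), DMSO replicate 1 (1.12) or DMSO replicate 2 (1.25). PSAT1, an ATF4 target of serine synthesis, rose in IMR-32 from 148.5 and 127.2 CPM to 212.2 and 262.7 CPM and with auxin from 155.0 and 152.2 CPM to 229.5 and 239.5 CPM. Its difference of differences of 0.87 (SE 0.22, adjusted p = 0.0105) was not called without IMR-32 BRM014 replicate 2 (0.66) or DMSO replicate 2 (0.76), and PSAT1 was not set apart. SCN3B, a sodium channel beta subunit gene, held in every alternative: it fell in IMR-32 from 327.9 and 371.5 CPM to 103.1 and 98.3 CPM, with a difference of differences of -1.08 (SE 0.26, adjusted p = 0.0044), and its log2 change with auxin was -0.89 (SE 0.17, adjusted p = 0.000323). SCN3B was also lower with BRM014 in the other lines, with log2 changes of -0.54 in KELLY and -0.88 in SK-N-DZ. Only 1 of these falls was called.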
